A study of Mus musculus with 14 samples.

Results

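The Eph receptors, their ephrin ligands, the semaphorins, and the plexins and neuropilins that receive semaphorins were followed through the development of mouse pontine nuclei (PN) neurons and in the other hindbrain neurons sorted with them. Members were all genes whose symbol is that of an Eph receptor (*Epha* or *Ephb*), an ephrin (*Efna* or *Efnb*), a semaphorin (*Sema*), a plexin (*Plxn*), *Nrp1* or *Nrp2*, with no expression value used. This rule found 53 of the 31054 genes counted: 9 EphA receptors, 5 EphB receptors, 5 ephrin-A ligands, 3 ephrin-B ligands, 7 class 3 semaphorins (the secreted class), 13 membrane-bound semaphorins, 9 plexins and 2 neuropilins. Single-cell RNA-seq (scRNA-seq) was performed on sorted hindbrain cells to compare PN development with normal and with reduced function of *Atoh1*, the transcription factor that defines the rhombic lip lineage from which PN neurons arise. Control embryos were Atoh1Cre/+ and Rosa lsl-TdTomato/+, and mutant embryos were Atoh1Cre/S193A and Rosa lsl-TdTomato/+, written Atoh1S193A/-, in which the only functional *Atoh1* copy carries a serine to alanine change. In both genotypes the Cre knock-in replaced the other *Atoh1* copy, so that the controls also have a single functional copy, and TdTomato marks every cell with a history of *Atoh1* expression rather than PN neurons alone. All animals were C57BL/6J. Hindbrains of 1 control and 1 Atoh1S193A/- littermate made up each of 3 litters at embryonic day E14.5 and another 3 litters at E18.5. PN were dissected from pooled control pups (11 to 13 per library) for 2 libraries at postnatal day (P) 5. TdTomato-positive cells were sorted at each age. The study lists both embryos of a litter with the same sex, except in E14.5 litter 1, with a female control and a male mutant. Its P5 pools were of mixed sex.

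Eph receptors are receptor tyrosine kinases that bind ephrins on the surface of neighbouring cells: EphA receptors bind mainly the ephrin-A ligands, which are held by a lipid anchor, and EphB receptors bind mainly the transmembrane ephrin-B ligands, with *Epha4* able to bind both kinds. Semaphorins signal through plexins, and most class 3 semaphorins need a neuropilin as the binding partner of an A-type plexin. Both systems steer growing axons and migrating neurons by attraction or repulsion, and PN neurons travel a long tangential route from the rhombic lip to the ventral pons before they send mossy fibres to the cerebellum.

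After filtering, 80250 cells were kept (3248 to 8726 per library, with 108239001 to 236964126 unique molecular identifiers (UMIs) per library before filtering). Cells were clustered at each age without the 53 members and without their pathway genes, so that no member placed a cell in a group. Embryonic clusters were called PN-like if at least 4 of the 6 PN markers *Pax6*, *Barhl1* and *Hoxb2* to *Hoxb5* exceeded their mean over clusters. *Pax6* also had to reach a mean of 0.5 on the log scale. The study's exclusion markers (*Lhx2* and *Reln* at E14.5, *En2* and *Eomes* at E18.5) could not exceed 0.4 of their highest cluster mean. At P5, *Hoxb3*, *Slc17a6* and *Barhl1* had to exceed their means, with the E18.5 exclusion markers. PN-like clusters held 7298 cells at E14.5, 3257 at E18.5 and 8223 at P5. They were clustered again and named from the study's markers as Progenitor-, Intermediate progenitor-, Migrating neuron-1-, Migrating neuron-2- and Differentiated neuron-like at E14.5, Intermediate progenitor-, Migrating neuron- and ePN1- to ePN4-like at E18.5, and PN1- to PN6-like at P5; "-like" is left out hereafter. At E18.5, no PN-like cluster was named Progenitors, and 126 cells stayed unnamed, as did 1411 cells at P5. At E14.5, a subcluster of 811 cells named Migrating neurons-2 had *Lhx2* among its leading genes. Levels are CPM, counts per 1000000 UMIs summed over the cells of a class in a library, given for classes with at least 10 cells in that library and as mean ± SD over libraries. Because the states were built from the same cells, differences between states are a description and carry no test. The assay counts the 3' ends of transcripts and is not scaled by length, and its capture differs between genes, so a level compares a gene with itself far better than with another gene. In sums over all cells of a library, fewer cells of a type and less RNA per cell cannot be told apart. *Atoh1* itself, whose transcript the S193A change does not remove, measured 55.0 to 137 CPM in E14.5 controls and 86.2 to 144 CPM in Atoh1S193A/- libraries, and 28.6 to 35.4 and 31.7 to 54.0 CPM at E18.5, so its level does not check the genotype labels. At E14.5, fits without both libraries of litter 2 are given as well, an alternative chosen after the data were seen. Of the E14.5 control libraries, 2 were counted with another Cell Ranger version. No pair of libraries shared more than 0.624% of the barcodes of the smaller one.

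The repertoire of these genes in control PN-like cells was broad, and its leading members differed between the ages. Of the 53 members, 29 exceeded 10 CPM at E14.5, 34 at E18.5 and 32 at P5, while 8, 6 and 5 lay under 1 CPM. Their summed level was 1431 CPM at E14.5, 1942 CPM at E18.5 and 1608 CPM at P5. *Epha1*, *Epha2*, *Plxnb3* and *Sema3g* stayed under 1 CPM in PN-like cells at all 3 ages, whereas *Epha5*, *Sema6a* and *Sema6d* each stayed above 90 CPM. *Epha5*, a receptor for ephrin-A ligands, was the highest EphA receptor at each age, at 183 ± 77.5 CPM at E14.5 (SD, n = 3), 120.4 ± 39.9 CPM at E18.5 (n = 3) and 146 ± 15.2 CPM at P5 (n = 2). The highest EphB receptor was *Ephb2* at E14.5 and *Ephb1* at both later ages. Among the ephrin-A ligands *Efna3* led at E14.5 and *Efna5* at E18.5 and P5, and *Efnb3* led the ephrin-B ligands throughout. The leading class 3 semaphorin was *Sema3f* at E14.5, *Sema3a* at E18.5 and *Sema3e* at P5. *Plxna3* led the plexins at E14.5 and *Plxna2*, a receptor for semaphorins of class 6 and, with neuropilins, of class 3, at the later ages. *Nrp1* exceeded *Nrp2* at all 3 ages.

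**Figure D1:**
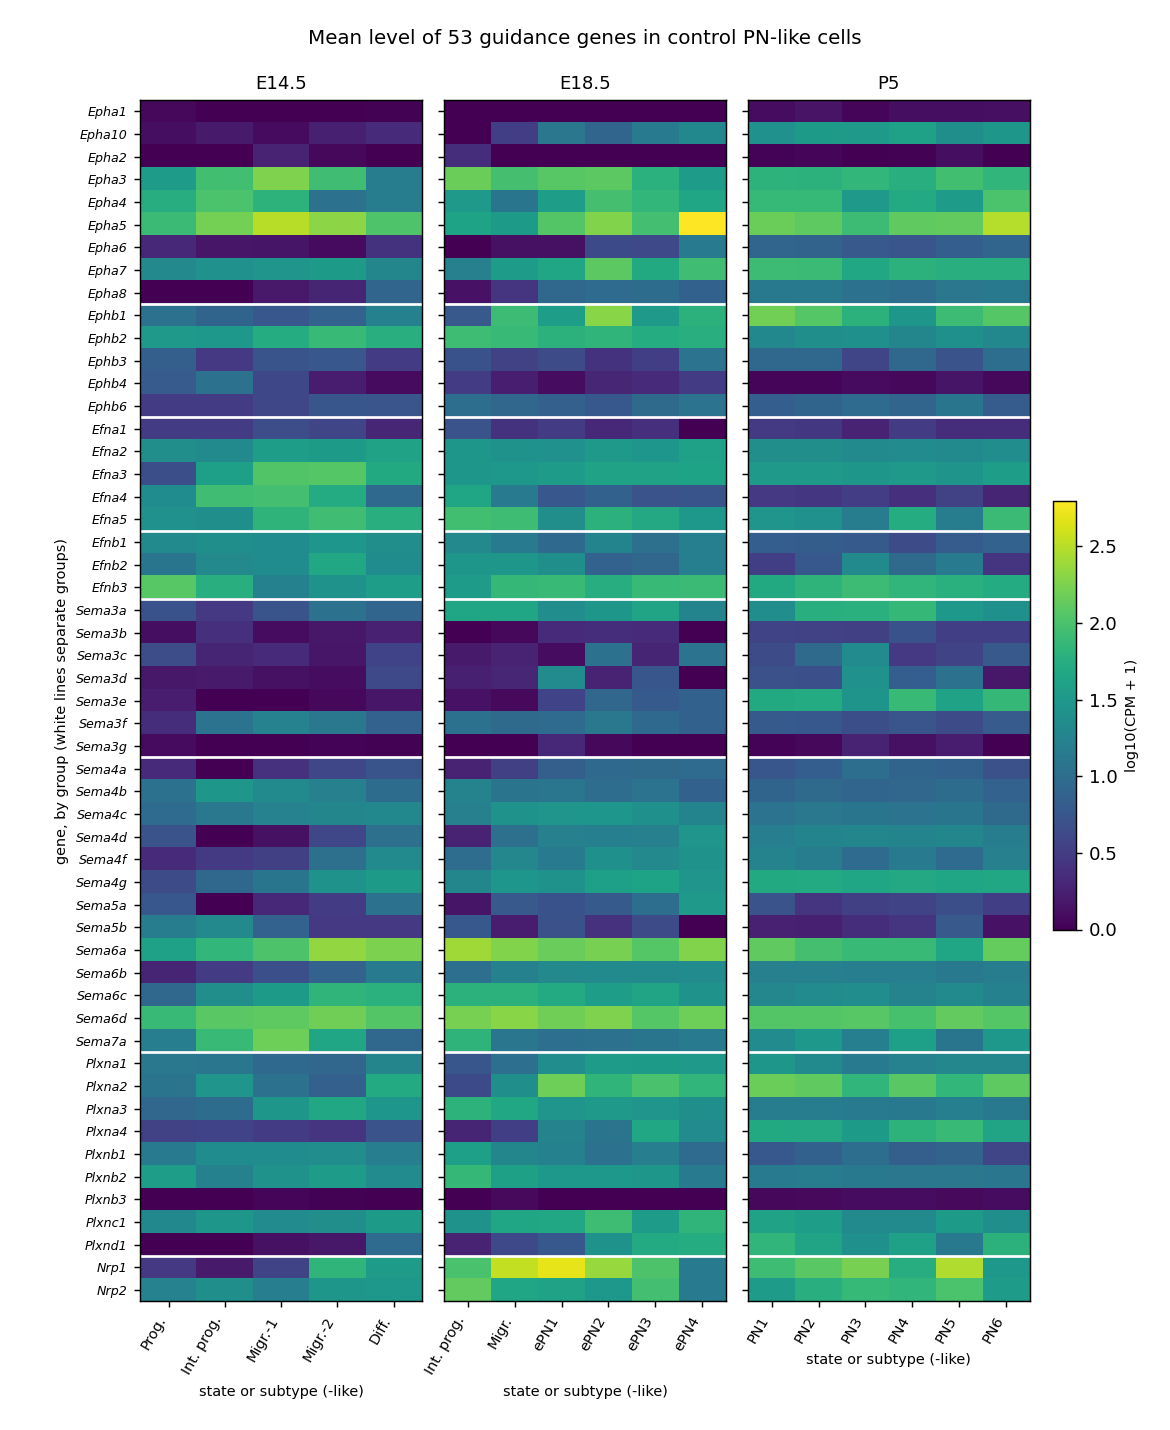
Mean level of each of the 53 members in control PN-like cells, as log10(CPM + 1) on the colour scale, with genes in rows by group and states or subtypes in columns for E14.5, E18.5 and P5. The members differ in where along the states they are high: *Nrp1* is dark in the 3 earliest E14.5 states and bright from Migrating neurons-2 onward.

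At E14.5 the order of the states, from Progenitors through both Migrating neuron states to Differentiated neurons, showed members with their highest level early and others with it late. Of the 34 members that reached 10 CPM in at least 1 state, 2 were highest in Progenitors, 3 in Intermediate progenitors, 5 in Migrating neurons-1, 13 in Migrating neurons-2 and 11 in Differentiated neurons. The 5 with their highest mean in Migrating neurons-1 were *Epha3*, *Epha5*, *Efna4*, *Sema3f* and *Sema7a*. For 9 members, namely *Efna3*, *Efna4*, *Epha3*, *Plxna3*, *Sema4b*, *Sema4f*, *Sema6c*, *Sema6d* and *Sema7a*, the highest PN-like state exceeded the mean of each of the 23 clusters outside the PN-like cells that had at least 10 cells in every control library and no low UMI count. Smaller clusters were left out of this comparison at each age.

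The promoter sequences of 5 genes that differed most between the states are shown, because 3 of them (*Epha3*, *Efna4* and *Sema7a*) had their highest mean in Migrating neurons-1 and 2 (*Efna3* and *Nrp1*) in Migrating neurons-2. For *Efna4* and *Efna3* this order of means did not hold in each litter. Each runs 5' to 3' on the gene's strand from 250 bases before to 50 bases after the start given by RefSeq for GRCm38.p6, and capitals mark CAGCTG, an E-box core that ATOH1 and other basic helix-loop-helix factors can bind (it reads the same on both strands). Other E-box sequences were neither marked nor counted. The windows are chr9:57939862-57940161 (plus strand) for *Sema7a*, chr16:63864126-63864425 (minus) for *Epha3*, chr3:89337979-89338278 (minus) for *Efna4*, chr3:89322890-89323189 (minus) for *Efna3* and chr8:128358823-128359122 (plus) for *Nrp1*.
Sema7a: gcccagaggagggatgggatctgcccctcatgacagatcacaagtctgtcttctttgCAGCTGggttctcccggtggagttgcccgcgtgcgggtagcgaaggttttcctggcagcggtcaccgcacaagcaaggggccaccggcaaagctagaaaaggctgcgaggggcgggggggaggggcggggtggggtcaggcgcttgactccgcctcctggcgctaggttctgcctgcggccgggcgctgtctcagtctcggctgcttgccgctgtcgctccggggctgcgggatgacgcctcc
Epha3: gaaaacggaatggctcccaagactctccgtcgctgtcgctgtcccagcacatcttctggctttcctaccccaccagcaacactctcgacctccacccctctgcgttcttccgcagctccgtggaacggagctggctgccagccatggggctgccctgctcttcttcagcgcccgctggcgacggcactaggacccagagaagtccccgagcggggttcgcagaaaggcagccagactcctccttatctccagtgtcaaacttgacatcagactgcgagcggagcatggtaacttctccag
Efna4: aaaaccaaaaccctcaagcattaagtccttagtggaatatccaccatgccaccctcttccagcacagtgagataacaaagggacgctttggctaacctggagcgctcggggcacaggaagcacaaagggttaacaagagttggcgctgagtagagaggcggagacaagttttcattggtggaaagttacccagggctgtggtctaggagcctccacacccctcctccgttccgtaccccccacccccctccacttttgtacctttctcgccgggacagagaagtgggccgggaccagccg
Efna3: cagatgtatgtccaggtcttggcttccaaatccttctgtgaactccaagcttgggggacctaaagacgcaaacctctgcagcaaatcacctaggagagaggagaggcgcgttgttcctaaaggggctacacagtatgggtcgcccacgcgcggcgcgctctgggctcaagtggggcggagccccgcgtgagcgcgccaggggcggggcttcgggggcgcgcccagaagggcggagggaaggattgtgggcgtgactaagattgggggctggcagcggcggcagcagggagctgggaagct
Nrp1: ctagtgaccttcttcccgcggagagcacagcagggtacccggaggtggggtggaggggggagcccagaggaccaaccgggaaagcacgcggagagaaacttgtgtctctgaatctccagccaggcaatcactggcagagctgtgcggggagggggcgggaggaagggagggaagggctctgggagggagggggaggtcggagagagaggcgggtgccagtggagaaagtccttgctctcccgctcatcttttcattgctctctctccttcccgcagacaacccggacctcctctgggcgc

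Of these 5 windows only that of *Sema7a* held CAGCTG, 193 bases before the start. RefSeq promoter windows were found for 47 of the 53 members, some with several starts, and 9 of the 47 genes (19.1%) held the motif in at least 1 window, beside 4944 of 27025 genes in the whole table (18.3%). Counted by window, the motif stood in 9 of 61 member promoters (14.8%) and in 5355 of 32851 promoters in all (16.3%). The *Nrp1* start in RefSeq lies 469 bases from that of the annotation used for the gene's coordinates, so its window covers a different start.

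The EphA receptors differed in the state where they were highest at E14.5. *Epha4*, the receptor that can bind ephrins of both kinds, measured 66.9, 48.9 and 46.8 CPM in control Progenitors (litters 1, 2 and 3), 89.6, 114 and 96.9 in Intermediate progenitors, 65.5, 53.5 and 70.3 in Migrating neurons-1, 11.2, 8.11 and 10.6 in Migrating neurons-2 and 17.9, 7.99 and 17.5 in Differentiated neurons. Every library of the first 3 states was thus above every library of the last 2, and the largest step lay between both Migrating neuron states. *Epha3*, a receptor for ephrin-A ligands, measured 38.3, 31.1 and 34.1 CPM in Progenitors, 95.3, 93.8 and 77.5 in Intermediate progenitors, 211, 126 and 209 in Migrating neurons-1, 105, 53.9 and 103 in Migrating neurons-2 and 10.5, 17.003 and 16.04 in Differentiated neurons. It peaked 1 state later than *Epha4*: all 3 Migrating neuron-1 libraries lay above all libraries of the other states, and the 3 Differentiated neuron libraries lay lowest. *Epha5* had the same peak as *Epha3* but stayed high in the last state, with 57.9, 113 and 70.8 CPM in Progenitors, 99.7, 298 and 95.1 in Intermediate progenitors, 253, 437 and 251 in Migrating neurons-1, 148, 325 and 137 in Migrating neurons-2 and 84.5, 119 and 111 in Differentiated neurons. In litter 2 *Epha5* was the highest of the 3 litters in 5 of the 5 states, so its states overlap when litters are pooled, although Migrating neurons-1 led within each litter. *Epha7* varied little, from 18.4 ± 2.62 CPM in Differentiated neurons to 32.2 ± 1.92 CPM in Migrating neurons-2. *Epha8* was close to absent before the Differentiated neurons, where it reached 7.14 ± 3.07 CPM. *Epha6* and *Epha10* had means under 2 CPM in each state.

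The EphB receptors showed less contrast between the states. *Ephb2*, a receptor for the transmembrane ephrin-B ligands, ranged from 30.1 ± 7.77 CPM in Intermediate progenitors to 77.1 ± 8.27 CPM in Migrating neurons-2. *Ephb1*, which the study lists among the markers of PN subtypes at later ages, was low at E14.5, at 14.1, 14.9 and 19.1 CPM in Differentiated neurons and 2.50, 5.86 and 5.77 in Migrating neurons-1. *Ephb4* was detected chiefly in Intermediate progenitors (9.99 ± 2.55 CPM) and Progenitors (5.34 ± 0.459 CPM), beside 0.219 ± 0.0347 CPM in Differentiated neurons. *Ephb3* and *Ephb6* had means under 6 CPM.

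The ephrin-A ligands separated by state. *Efna4* measured 24.4, 21.9 and 20.1 CPM in control Progenitors, 95.3, 82.4 and 82.8 in Intermediate progenitors, 109, 81.0 and 79.7 in Migrating neurons-1, 66.9, 49.2 and 39.8 in Migrating neurons-2 and 10.5, 6.44 and 7.496 in Differentiated neurons. Intermediate progenitors and Migrating neurons-1 overlapped and both lay above the other 3 states. The highest mean was that of Migrating neurons-1, but in litters 2 and 3 Intermediate progenitors were slightly higher. *Efna3* was instead lowest in Progenitors, with 3.49, 4.97 and 2.67 CPM in Progenitors, 36.1, 48.3 and 26.4 in Intermediate progenitors, 122, 121 and 84.4 in Migrating neurons-1, 134, 116 and 90.8 in Migrating neurons-2 and 55.9, 44.3 and 47.7 in Differentiated neurons. Its lowest Migrating neuron library exceeded the highest library of each other state, both Migrating neuron states overlapped, and Intermediate progenitors overlapped Differentiated neurons. With 5 CPM added to each mean, *Efna3* had the largest ratio between highest and lowest state of all members at this age, 13.6. *Efna5* was highest in Migrating neurons-2 (86.8 ± 9.40 CPM), *Efna2* ranged from 21.1 ± 6.00 to 39.6 ± 2.51 CPM, and *Efna1* did not exceed 3.57 ± 0.910 CPM in any state.

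Of the ephrin-B ligands, *Efnb3* marked the earliest state. It measured 116, 119.7 and 116 CPM in control Progenitors, 49.1, 56.8 and 59.9 in Intermediate progenitors, 13.3, 15.8 and 19.5 in Migrating neurons-1, 25.5, 26.0 and 28.2 in Migrating neurons-2 and 45.1, 27.6 and 34.0 in Differentiated neurons. The 3 Progenitor libraries were the highest, and the level was lowest in Migrating neurons-1. *Efnb2* was highest in Migrating neurons-2 at 45.4 ± 2.66 CPM, and *Efnb1* ranged only from 20.5 ± 6.04 to 28.9 ± 3.27 CPM over the 5 states.

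Among the semaphorins, the membrane-bound classes had the higher CPM. *Sema7a*, the lipid-anchored semaphorin, measured 16.7, 15.3 and 12.03 CPM in control Progenitors, 91.0, 68.2 and 75.7 in Intermediate progenitors, 172, 136 and 144 in Migrating neurons-1, 55.4, 40.1 and 37.0 in Migrating neurons-2 and 8.22, 7.47 and 6.83 in Differentiated neurons. Its 5 states did not overlap in any library, and the Migrating neuron-1 mean was above the highest of those 23 clusters, which reached 58.4 CPM. *Sema6a*, a transmembrane ligand of A-type plexins that can also act as a receptor, measured 29.3, 53.8 and 35.4 CPM in Progenitors and 226, 206 and 228 CPM in Migrating neurons-2. *Sema6d*, of the same class, was above 50 CPM in each state and highest in Migrating neurons-2 at 154 ± 18.6 CPM, and *Sema6c* ranged from 7.56 ± 3.87 CPM in Progenitors to 66.5 ± 4.11 CPM in Migrating neurons-2. *Sema4f*, *Sema4g*, *Sema6b* and *Sema5a* were highest in Differentiated neurons, at 20.4 ± 1.67, 32.7 ± 7.04, 13.7 ± 2.62 and 10.1 ± 3.07 CPM. *Sema4b* and *Sema5b* were highest in Intermediate progenitors, at 29.3 ± 5.77 and 19.5 ± 5.67 CPM. The secreted class 3 semaphorins were low: *Sema3f* reached 16.2 ± 2.44 CPM in Migrating neurons-1 and *Sema3a* 10.1 ± 3.71 CPM in Migrating neurons-2, and the other 5 did not exceed 4 CPM in any state.

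Among the semaphorin receptors, *Nrp1* differed between both Migrating neuron states. *Nrp1*, the neuropilin that receives SEMA3A, measured 0.697, 1.66 and 3.34 CPM in control Progenitors, 0, 0 and 1.76 in Intermediate progenitors, 2.22, 2.56 and 3.61 in Migrating neurons-1, 74.0, 53.1 and 73.2 in Migrating neurons-2 and 38.1, 17.5 and 47.3 in Differentiated neurons. Every library of the first 3 states lay under 4 CPM and every library of the last 2 above 17 CPM. *Nrp2*, the neuropilin that receives SEMA3F, had no such step and ranged from 14.8 ± 6.98 to 29.8 ± 11.9 CPM. *Plxna3* ranged from 7.33 ± 1.72 CPM in Progenitors to 46.8 ± 2.02 CPM in Migrating neurons-2, whereas *Plxna2* was lowest there (6.13 ± 2.49 CPM) and highest in Differentiated neurons (51.1 ± 8.12 CPM). *Plxna1* was also highest in Differentiated neurons, at 17.9 ± 4.79 CPM. *Plxnd1*, the receptor of SEMA3E, stayed under 1 CPM until the Differentiated neurons, where it measured 8.43, 1.80 and 15.4 CPM. *Plxna4* did not exceed 4.23 ± 3.05 CPM, *Plxnb1*, *Plxnb2* and *Plxnc1* had state means between 13.3 and 34.8 CPM, and *Plxnb3* was near 0.

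**Figure D2:**
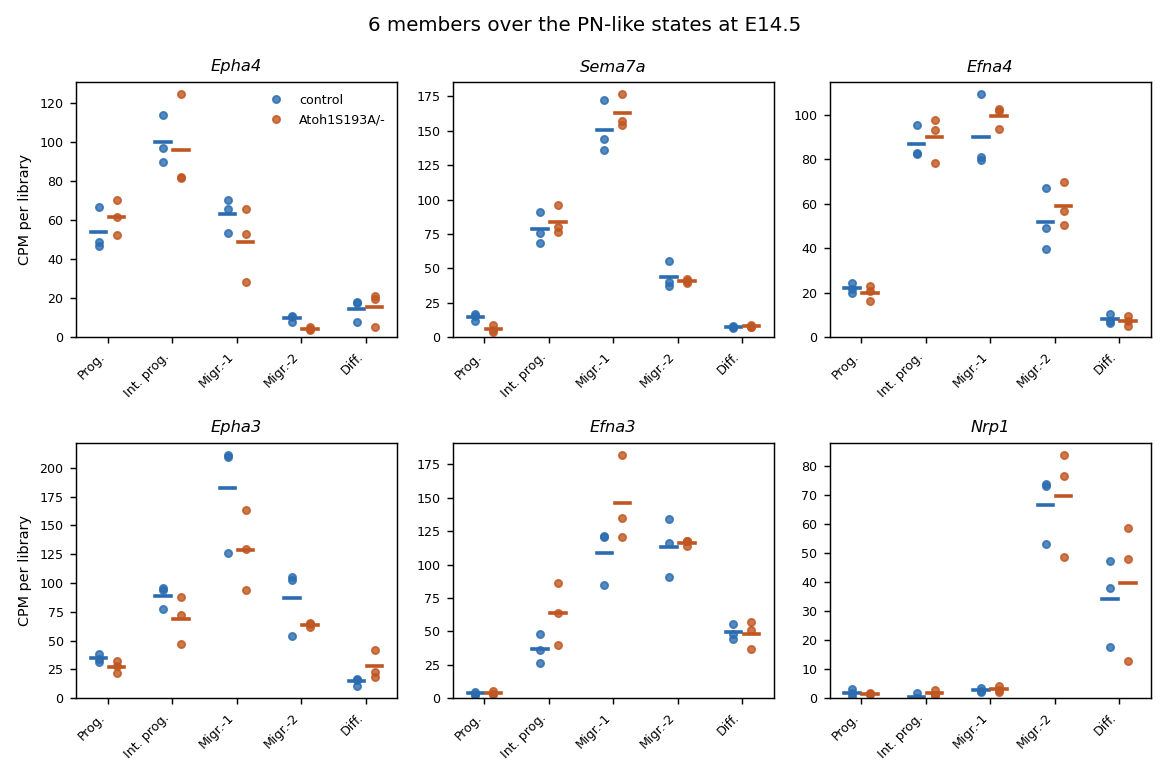
Level of 6 members in each PN-like state at E14.5, in CPM on a linear axis from 0; each point is 1 library (3 control in blue, 3 Atoh1S193A/- in orange) and each bar the mean. The control mean is highest in Intermediate progenitors for *Epha4*, in Migrating neurons-1 for *Sema7a*, *Efna4* and *Epha3*, and in Migrating neurons-2 for *Efna3* and *Nrp1*. Points of *Efna4* overlap between Intermediate progenitors and Migrating neurons-1, and those of *Efna3* between both Migrating neuron states.

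At E18.5, 38 members reached 10 CPM in at least 1 control state with 3 libraries, 12 of them being highest in Intermediate progenitors, 4 in Migrating neurons, 5 in ePN1, 13 in ePN2 and 4 in ePN3. In 11 of them, namely *Efna4*, *Epha4*, *Epha7*, *Ephb1*, *Nrp1*, *Nrp2*, *Plxna3*, *Plxnd1*, *Sema4g*, *Sema6b* and *Sema6c*, no mean of the 23 other clusters of that size was higher. ePN4 had 10 cells or more in only 1 control library, so its values are single measurements. *Nrp1* had the largest ratio between states of all members when that library was counted, 27.8 with 5 CPM added to each mean. Over the 5 states with 3 libraries its ratio was 4.76, and *Ephb1* and *Plxna2* had the largest, 20.4 and 18.8. *Nrp1* measured 84.2, 74.2 and 139 CPM in Intermediate progenitors, 359.8, 337 and 353 in Migrating neurons, 495, 504 and 473 in ePN1, 220.0, 242 and 233 in ePN2, 94.6, 99.4 and 115 in ePN3 and 12.8 in the ePN4 library. ePN1, Migrating neurons, ePN2 and ePN3 formed a descending order in which no libraries of neighbours overlapped, while the Intermediate progenitor libraries overlapped those of ePN3. *Nrp2* had another order and was highest in Intermediate progenitors (153, 122 and 121 CPM) and, among the subtypes, in ePN3 (91.3, 92.8 and 91.7 CPM), with 47.8, 33.8 and 40.1 CPM in ePN1 and 37.6, 28.5 and 24.7 CPM in ePN2.

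Several Eph receptors at E18.5 were highest in ePN2. *Ephb1* measured 0, 8.24 and 7.02 CPM in Intermediate progenitors, 86.9, 83.2 and 73.6 in Migrating neurons, 24.3, 31.0 and 50.5 in ePN1, 164, 246 and 194 in ePN2 and 21.2, 35.5 and 36.0 in ePN3. The lowest ePN2 library exceeded the highest library of each other state, and ePN1 and ePN3 overlapped. *Epha7* measured 135, 107 and 124 CPM in ePN2, 37.6, 44.7 and 46.1 in ePN1 and 43.5, 42.1 and 61.3 in ePN3, and *Epha4* 101, 77.0 and 100.3, 39.2, 21.0 and 44.1 and 77.2, 77.6 and 57.6 in the same subtypes. The ePN2 libraries of *Epha7* lay above those of both other subtypes, whereas for *Epha4* ePN2 had the highest mean but its lowest library fell below the highest of ePN3. *Epha4* was lowest in Migrating neurons, at 11.3 ± 3.23 CPM. *Epha5* varied between libraries, with 196, 115 and 242 CPM in ePN2, 115, 91.2 and 125 in ePN1 and 112, 57.9 and 103 in ePN3, so ePN1 overlapped both others while every ePN2 library lay above every ePN3 library, and it stood at 638 CPM in the ePN4 library. *Epha3* was high in Intermediate progenitors (149 ± 25.7 CPM), ePN2 (123 ± 3.88 CPM) and ePN1 (117 ± 5.59 CPM) and lower in ePN3 (60.7 ± 11.9 CPM). *Ephb2* ranged only from 53.8 ± 5.93 to 83.9 ± 10.6 CPM.

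Of the ligands at E18.5, *Efna5* measured 73.0, 102 and 93.1 CPM in Intermediate progenitors, 89.1, 85.3 and 76.0 in Migrating neurons, 25.9, 21.0 and 23.6 in ePN1, 61.0, 62.0 and 61.4 in ePN2 and 45.1, 48.0 and 52.3 in ePN3. The ePN1 libraries were the lowest. *Efnb2* had the reverse contrast among the subtypes, with 23.7 ± 7.20 CPM in ePN1 against 6.56 ± 2.71 CPM in ePN2 and 7.40 ± 1.69 CPM in ePN3. *Efna4* and *Sema7a*, whose highest E14.5 means lay in Migrating neurons-1, were again highest in an early state, at 44.5 ± 11.4 and 66.0 ± 12.8 CPM in Intermediate progenitors, and did not exceed 14 CPM in any later state with 3 libraries. *Sema6a* was also highest in Intermediate progenitors (249.9 ± 15.4 CPM), and *Sema6d* in Migrating neurons (200.5 ± 27.2 CPM). *Sema3d*, a secreted semaphorin, was found mainly in ePN1, at 22.7, 21.0 and 20.2 CPM, beside 0.923 ± 0.438 CPM in ePN2 and 4.61 ± 1.27 CPM in ePN3. *Sema3c* was found mainly in ePN2, at 11.9, 5.00 and 13.8 CPM, and in the ePN4 library, at 10.7 CPM.

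Several plexins at E18.5 were lower in the immature states than in the subtypes. *Plxna2* measured 2.25, 4.12 and 3.51 CPM in Intermediate progenitors, 22.6, 26.7 and 23.1 in Migrating neurons, 127, 151 and 174 in ePN1, 74.7, 64.0 and 60.7 in ePN2 and 98.9, 94.1 and 103 in ePN3, so ePN1 lay above the other subtypes in each library. *Plxnd1* measured 1.12, 1.37 and 0 CPM in Intermediate progenitors, 4.51, 2.05 and 2.88 in Migrating neurons, 7.06, 4.56 and 3.03 in ePN1, 31.6, 24.0 and 24.0 in ePN2, 66.9, 46.7 and 37.7 in ePN3 and 53.5 in the ePN4 library. Of the 3 subtypes with 3 libraries, ePN1 was the lowest and ePN3 the highest without overlap, and the ePN4 library lay within the range of ePN3. *Plxna4*, an A-type partner of the neuropilins, measured 50.6, 44.7 and 43.8 CPM in ePN3 against 21.2, 11.9 and 17.5 in ePN1 and 10.5, 10.5 and 12.2 in ePN2, with no overlap between ePN3 and either. *Plxnb2* and *Plxna3* ran the other way and were highest in Intermediate progenitors, at 72.4 ± 25.1 and 63.3 ± 9.70 CPM.

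At P5, 36 members reached 10 CPM in at least 1 subtype, with 8 highest in PN1, 4 in PN2, 7 in PN3, 4 in PN4, 7 in PN5 and 6 in PN6. In 10 of them (*Efna3*, *Efna5*, *Epha10*, *Epha3*, *Sema3a*, *Sema3c*, *Sema3e*, *Sema4g*, *Sema6b* and *Sema7a*) none of the 12 other clusters of that size had a higher mean. With 2 libraries of 1 genotype, each pair of values is given as measured. *Nrp1* measured 92.3 and 74.9 CPM in PN1, 133 and 108 in PN2, 192 and 142 in PN3, 56.2 and 51.8 in PN4, 324 and 264 in PN5 and 33.2 and 26.6 in PN6. PN5 was highest and PN6 lowest in both libraries, with PN3 second. *Nrp2* was also highest in PN5, at 109 and 89.6 CPM, and was lowest in PN1 (33.8 and 32.9 CPM) and PN6 (38.8 and 27.4 CPM), which had no common order in both libraries.

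Eph receptors and ephrins differed between the P5 subtypes. *Ephb1* measured 158 and 158 CPM in PN1, 125 and 106 in PN2, 68.9 and 53.9 in PN3, 32.7 and 26.1 in PN4, 85.4 and 80.1 in PN5 and 112 and 114 in PN6, so PN1 was highest and PN4 lowest. *Epha5* stood out in PN6, at 327 and 286 CPM, while the other 5 subtypes had means from 81.9 ± 9.76 CPM in PN3 to 146 ± 9.27 CPM in PN1. *Epha4* was also highest in PN6 (98.5 and 101 CPM) and lowest in PN3 (34.4 and 26.8 CPM). *Efna5*, a ligand of EphA receptors, measured 74.6 and 83.5 CPM in PN6, 55.8 and 51.3 in PN4, 16.2 and 11.9 in PN5 and 13.4 and 15.2 in PN3. PN6 thus held the highest levels of *Efna5* and of the receptors *Epha5* and *Epha4*. *Efnb2* was highest in PN3 (23.7 and 17.2 CPM) and lowest in PN6 (1.44 and 1.78 CPM), and *Efnb3* was highest in PN3 (86.3 and 76.2 CPM). *Efna4* and *Efnb1*, present at the earlier ages, measured 1.69 ± 0.248 and 5.07 ± 0.709 CPM in all PN-like cells.

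Secreted semaphorins differed between the P5 subtypes. *Sema3a* measured 74.3 and 71.3 CPM in PN4, 62.7 and 56.3 in PN3, 59.2 and 56.4 in PN2, 33.5 and 26.3 in PN5, 26.9 and 22.5 in PN6 and 22.9 and 22.3 in PN1. PN4, PN3 and PN2 lay above the other 3 subtypes in both libraries. *Sema3e*, the ligand of PLXND1, measured 78.3 and 72.0 CPM in PN4, 68.1 and 76.2 in PN6 and 29.7 and 24.8 in PN3, and *Sema3d* 32.0 and 18.8 CPM in PN3 against 0.759 and 0.237 in PN6. *Sema3c* was highest in PN3 as well, at 22.6 and 20.5 CPM. Of the receptors, *Plxnd1* measured 71.5 and 66.3 CPM in PN1, 58.3 and 64.8 in PN6, 25.7 and 23.3 in PN3 and 17.5 and 7.63 in PN5. PN1 and PN6 were the highest subtypes and PN5 the lowest. *Plxna4* was highest in PN5 (84.9 and 68.1 CPM) and *Plxna2* in PN1 (158 and 139 CPM), and *Sema6a* ranged from 45.5 and 42.1 CPM in PN5 to 137 and 137 CPM in PN6. *Sema6d* and *Sema4g* had subtype means of 96.6 ± 22.9 to 131 ± 10.5 CPM and 43.7 ± 1.51 to 50.8 ± 5.10 CPM.

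**Figure D3:**
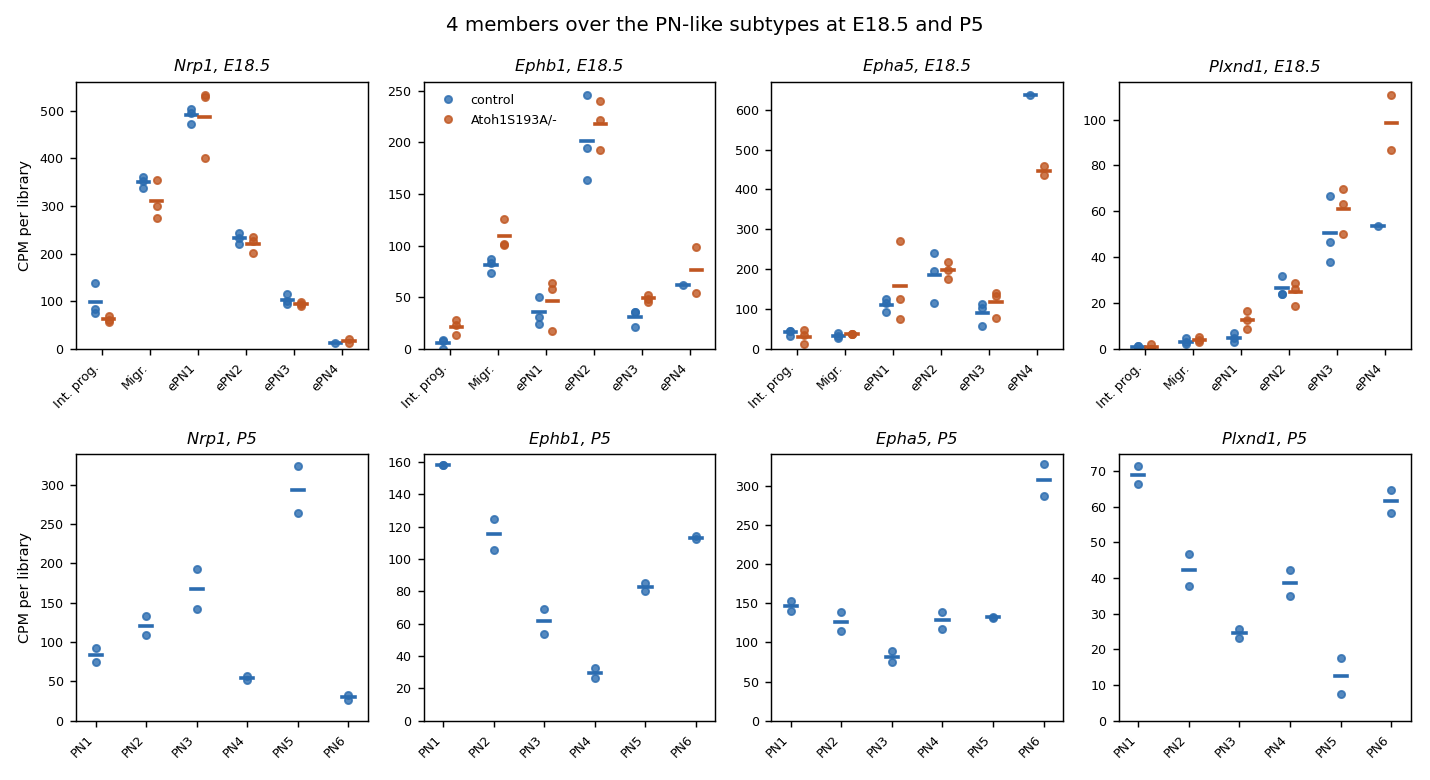
Level of *Nrp1*, *Ephb1*, *Epha5* and *Plxnd1* in each PN-like state or subtype, in CPM on linear axes from 0, at E18.5 (top; control in blue, Atoh1S193A/- in orange) and P5 (bottom; control); each point is 1 library and each bar the mean. *Nrp1* is highest in ePN1 and PN5, *Ephb1* in ePN2 and PN1, *Epha5* in the ePN4 library and PN6, and *Plxnd1* is low in ePN1 and PN5.

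Outside the PN-like cells the same genes were high in other classes of sorted cells, described by their leading genes. At E14.5, *Epha5* reached 253, 437 and 251 CPM in Migrating neurons-1 but 552, 855 and 632 CPM in a cluster led by *Neurod1*, *Cplx2* and *Reln*. *Nrp1* reached 302, 276 and 233 CPM in a cluster led by *Th*, *Pax5* and *En1*, and *Efnb3* 306, 281 and 721 CPM in a cluster led by *Msx1*, *Dkk3* and *Rfx4*. For each of these 3 genes all 3 control libraries of that cluster exceeded all libraries of the highest PN-like state. At E18.5, *Sema6a* reached 732, 711 and 654 CPM in a cluster led by *Cartpt*, *Nefm* and *Cadps2*, and *Epha3* 276, 277 and 245 CPM in a cluster led by *Rorb* and *Svep1*. At P5, although the cells were sorted for TdTomato, the libraries also held clusters led by the microglial gene *Cx3cr1*, the astrocyte gene *Aqp4* and the oligodendrocyte-lineage gene *Pdgfra*, and a cluster led by the myelin genes *Mag* and *Cldn11* had 2280.4 and 2158 CPM of *Sema6a*, 1402 and 1243 CPM of *Sema4d*, 626 and 592 CPM of *Sema5a* and 482 and 439 CPM of *Ephb1*. These were the highest means of those 4 genes in any P5 class.

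The comparison of genotypes asked whether reduced *Atoh1* function changed these genes. Differences were tested with edgeR's quasi-likelihood test on UMIs summed per library, over genes found in at least 10% of cells of a genotype, and called at a Benjamini-Hochberg false discovery rate (FDR) under 0.05 with an absolute log2 fold change over 0.25. In all sorted cells at E14.5, 0 of 36 members tested were called (6 at an unadjusted p under 0.05, and 1, *Sema4f*, with DESeq2 at FDR 0.0227), beside 0.00976% of all genes tested (2.44% with DESeq2). The litters paired the libraries, and with the litter as a block 10 of 36 members (27.8%) were called, beside 17.6% of all genes: 4 were higher and 6 lower in Atoh1S193A/-, beside 10.3% and 7.24% of all genes. Those higher were *Sema3c* (log2 fold change 0.39, FDR 0.0138), *Sema5b* (0.55, FDR 0.00869), *Epha7* (0.31, FDR 0.0186) and *Efnb3* (0.30, FDR 0.0435). Those lower were *Sema6b* (-0.51, FDR 0.0188), *Sema4f* (-0.43, FDR 0.0169), *Sema6c* (-0.34, FDR 0.00862), *Sema4g* (-0.33, FDR 0.0210), *Efna3* (-0.29, FDR 0.0209) and *Efna2* (-0.26, FDR 0.0321). In control PN-like cells, *Efnb3*, *Sema3c* (at a low level) and *Sema5b* were highest in progenitor states, *Sema4f*, *Sema4g*, *Sema6b* and *Efna2* in Differentiated neurons, and *Epha7*, *Sema6c* and *Efna3* in Migrating neurons-2. The calls themselves cover all sorted cells, of which PN-like cells are a part, and which cells carried them was not tested. *Sema4f* measured 9.57, 10.5 and 9.23 CPM in controls and 7.25, 7.29 and 7.64 CPM in their mutant littermates, with every mutant library below every control library. *Efna3* measured 45.4, 38.6 and 31.0 CPM in controls and 33.6, 33.3 and 27.9 CPM in mutants, lower in each litter although the groups overlap. Controls 1 and 2 of E14.5 were counted with Cell Ranger 3.1.0 and their mutant littermates with 5.0.1. Within these litters genotype and version cannot be told apart, in this fit or in other E14.5 fits. The same holds for genotype and sex in litter 1, whose control was female and whose mutant was male.

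Markers of cell composition moved in the same comparison. The 10 Progenitor markers summed to 1274 to 2403 CPM in controls and 2036 to 4583 CPM in Atoh1S193A/- libraries, all 10 with a higher mean in mutants and none at 0. The 10 Differentiated neuron markers all had a lower mean in mutants. All 7 markers of cycling cells, all 7 of astrocytes and radial glia and all 5 of blood also had a higher mean in mutants, summing to 436 to 984, 222 to 331 and 4.67 to 29.7 CPM in controls and 748 to 1588, 278 to 483 and 2.56 to 45.1 CPM in mutants. The groups were apart in 3 of 10 Progenitor and 2 of 10 Differentiated neuron markers. They were apart in 0 of 7 cycling, 1 of 7 astrocyte and 0 of 5 blood markers. Of other lists, 1 of 6 microglial, 1 of 6 mural cell and fibroblast and 4 of 9 granule lineage markers had a higher mean in mutants. So did 3 of 5 endothelial and 5 of 7 oligodendrocyte lineage markers. The 6 PN subset markers summed to 876 to 1291 and 833 to 1110 CPM, 1 of 6 with a higher mean in mutants, and 4 of 6 dissociation stress genes had a higher mean, summing to 209.5 to 419 and 378 to 527 CPM. The 4 ependyma and choroid plexus markers summed to 767 to 2578 CPM in controls and 1736 to 13152 CPM in mutants, 4 of 4 with a higher mean, and *Ttr* alone had 757 to 2560 CPM and 1716 to 13073 CPM. Within the PN-like cells, the choroid plexus sum was at most 225 CPM and the Progenitor markers summed to 1282 to 1846 CPM in controls and 4017 to 4800 CPM in mutants. Cycling markers there summed to 288 to 516 CPM in controls and 940.1 to 1448 CPM in mutants (7 of 7 higher, the groups apart in 7). The dissociation stress genes there summed to 254 to 384 and 413 to 544 CPM (6 of 6 higher, the groups apart in 3). Progenitors numbered 69 to 106 cells per control library and 313 to 470 per mutant library. The part of these shifts in the 10 calls was not tested. Without both libraries of litter 2, 0 of 36 members were called, beside 0.0% of all genes, and 9 of 36 with the block, beside 15.0%.

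Within single PN-like states at E14.5, where cells given the same state name are compared, 0 of 157 member and state pairs were called by edgeR (15 at an unadjusted p under 0.05), beside 0.0125% of all gene and state pairs. DESeq2 called 1 (beside 0.119% of all pairs), *Epha4* in Migrating neurons-2 (log2 fold change -1.21, FDR 0.0300), where controls had 11.2, 8.11 and 10.6 CPM and mutants 3.80, 4.11 and 5.21 CPM, each mutant library below each control library. With the litter block, edgeR called 6 pairs (3.82%), beside 0.5% of all pairs. In Progenitors these were *Epha5* and *Sema7a*, beside 0.753% of all genes. *Epha5* measured 57.9, 113 and 70.8 CPM in control and 92.8, 179 and 111 CPM in mutant Progenitors, higher in each litter while the groups overlap (log2 fold change 0.61 ± 0.08 SE, FDR 0.00536). *Sema7a* measured 16.7, 15.3 and 12.03 and 4.17, 9.18 and 5.22 CPM, with no overlap (-1.29 ± 0.26, FDR 0.0498). The dissociation stress genes summed to 308 to 604 CPM in control and 565 to 913 CPM in mutant Progenitors, and to 220.2 to 324 and 169 to 385 CPM in Migrating neurons-1, and their part in the calls was not tested. Progenitors pooled a subcluster of 699 cells led by *Top2a* and *Cenpf* with another of 685 cells led by *Id3*. The part of their mix in the calls was not tested either.

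In Migrating neurons-1, 4 members were called with the litter block, beside 1.46% of all genes. *Epha3* measured 211, 126 and 209 CPM in control and 163, 93.7 and 129.9 CPM in Atoh1S193A/- libraries, lower in each litter (log2 fold change -0.54 ± 0.08 SE, FDR 0.00292). *Efna3* measured 122, 121 and 84.4 and 135, 182 and 121 CPM, higher in the mutant of each litter (0.38 ± 0.09, FDR 0.0389), which is opposite in sign to its value in all cells. *Efnb2* measured 20.8, 26.0 and 19.8 and 33.0, 38.8 and 30.5 CPM, the only one of the 4 without overlap between the genotypes (0.58 ± 0.14, FDR 0.0466). *Nrp2* measured 14.4, 8.06 and 22.0 and 29.4, 6.96 and 52.5 CPM, higher in mutants of litters 1 and 3 and lower in litter 2 (0.93 ± 0.20, FDR 0.0257). Without both libraries of litter 2, the block fit called 12 pairs over the 5 states, beside 1.21% of all pairs, and the fit without it 1, beside 0.0752%. With all libraries and the filter, edgeR called no member in Intermediate progenitors, Migrating neurons-2 or Differentiated neurons, with or without the block.

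At E18.5, no member was called for genotype in PN-like states or in all cells. In all sorted cells 0 of 33 members were called with edgeR (3 at an unadjusted p under 0.05), 0 with DESeq2 and 0 with the litter block, beside 0.0% of all genes with edgeR, 0.132% with DESeq2 and 0.253% with the block. Over the PN-like states, 0 of 185 pairs were called (20 at an unadjusted p under 0.05), 0 with DESeq2 and 0 with the block, beside 0.0204% of all gene and state pairs with edgeR or DESeq2 and 0.145% with the block. In ePN1, mutant libraries held 15 to 43 cells against 65 to 167 in controls. *Nrp1* in ePN1 measured 495, 504 and 473 CPM in controls and 528, 534 and 400.0 CPM in mutants, a log2 fold change of -0.02 ± 0.11 SE (FDR 1.00). *Ephb1* in ePN2 measured 164, 246 and 194 and 240.0, 221 and 192 CPM, a log2 fold change of 0.10 ± 0.13 (FDR 1.00).

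Whether the genotype effect differed between the ages was tested in all sorted cells as an interaction. No member of 38 was called with edgeR (4 at an unadjusted p under 0.05), beside 0.0% of all genes, and DESeq2 called 1, *Sema4f*, beside 0.674%. With the litter block 7 of 38 members (18.4%) were called, 5 with a positive and 2 with a negative difference, beside 14.6% of all genes (5.94% positive and 8.61% negative). In *Sema6c*, *Sema4f*, *Ephb1*, *Sema5a* and *Sema4g* the log2 difference between mutant and control was higher at E18.5 than at E14.5, by 0.29, 0.54, 0.33, 0.71 and 0.43, and the same value for *Epha7* and *Sema5b* was -0.29 and -0.92. Here too, genotype and Cell Ranger version cannot be told apart within E14.5 litters 1 and 2, nor genotype and sex within litter 1.

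In clusters of other sorted cells, with 10 cells or more in each library used, 0 of 855 member and cluster pairs were called at E14.5 and 2 of 719 at E18.5, beside 0.00987% and 0.131% of all gene and cluster pairs. The first was *Epha3* in a cluster led by *Mgarp*, *Ccnd2*, *Hes5*, *Pax3* and *Otx2* (cluster 9). It measured 33.2, 31.2 and 31.8 CPM in control and 72.0, 68.5 and 79.8 CPM in Atoh1S193A/- libraries, with no overlap (log2 fold change 1.17 ± 0.10 SE, FDR 1.27e-04). The second was *Plxna2* in a cluster led by *Tlx3*, *Mdk* and *Mcm6* (cluster 13), at 3.51, 3.17 and 3.25 CPM in controls and 8.34, 7.38 and 9.59 CPM in mutants (log2 fold change 1.27 ± 0.25, FDR 0.0442), a low level at which few UMIs carry the difference. With the litter block, 15 of 826 pairs were called at E14.5 and 32 of 719 at E18.5 (22 higher and 10 lower in mutants), beside 0.325% and 0.63% of all pairs. *Epha3* was called higher in mutants in 7 E18.5 clusters (0, 2, 4, 7, 9, 13 and 24), with log2 fold changes of 0.52 in cluster 0, 0.58 in cluster 2, 0.79 in cluster 4, 0.56 in cluster 7, 0.73 in cluster 13 and 0.81 in cluster 24. Its sign was positive in 17 of the 25 clusters tested, with a median of 0.29. *Epha5*, its relative, was called lower in 4 E18.5 clusters (0, 2, 3 and 14), with log2 fold changes of -0.47, -0.46, -0.51 and -0.32. Over all 24 clusters tested its sign was positive in 14, with a median log2 fold change of 0.063. *Sema7a* was called lower in 3 E18.5 clusters (0, 2 and 4), with log2 fold changes of -0.32, -0.33 and -0.66, and was positive in 4 of 19 clusters tested (median -0.28). *Ephb1* was called higher in 3 clusters (5, 9 and 20) and positive in 18 of 20, and *Epha8* was called higher in 3 (4, 9 and 15) and positive in 15 of 18, with medians of 0.23 and 0.20. Clusters 0, 2, 4 and 7 are led by cell cycle genes such as *Top2a*, *Pclaf* and *Mcm6*. All clusters of an age come from the same embryos, so calls and signs counted over clusters are not independent. At E14.5, 7 of the 15 calls lay in 1 cluster led by *Ccnd2*, *Otx2* and *Sp5* (cluster 15), where 33 members were tested and 1.95% of all genes were called (1.08% higher). All 7 were higher in mutants: *Epha7* (1.30), *Sema3c* (1.59), *Epha5* (0.78), *Efnb1* (0.73), *Plxnc1* (0.70), *Ephb2* (0.61) and *Efna5* (0.59).

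**Figure D4:**
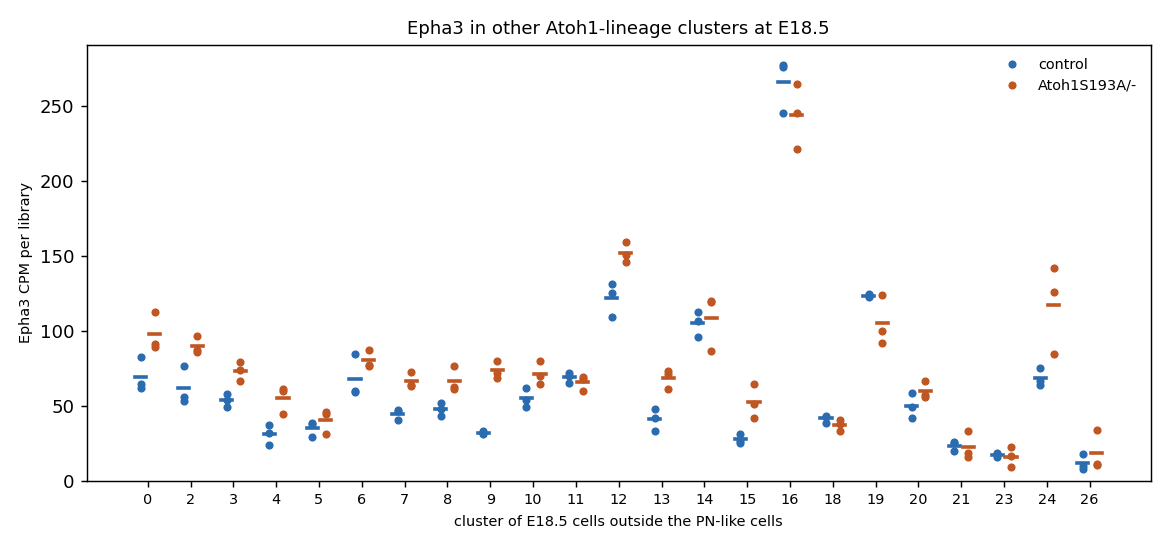
Level of *Epha3* in the 23 E18.5 clusters outside the PN-like cells with at least 10 cells in each library and no low UMI count, in CPM on a linear axis from 0; points are single libraries (3 control in blue, 3 Atoh1S193A/- in orange) and bars their means. In cluster 9 the 3 mutant points lie between 68.5 and 79.8 CPM, above the 3 control points between 31.2 and 33.2 CPM.

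Between the ages, most of these genes differed. In all sorted cells of control libraries, 27 of 36 members differed between E14.5 and E18.5 (75.0%; 11 higher and 16 lower at E18.5), beside 51.6% of all genes tested (26.5% higher and 25.1% lower). Both ages come from different litters and from clusters in different proportions, so the makeup of the sort and levels per cell cannot be told apart here. Cell Ranger 3.1.0 was used for controls 1 and 2 of E14.5 and 5.0.1 for all E18.5 libraries, so age and version are in part confounded. The mix of sexes also differed between the ages. *Plxnb2*, a B-type plexin, measured 37.4, 31.2 and 36.9 CPM at E14.5 and 177, 149 and 119 CPM at E18.5 (log2 fold change 1.99 ± 0.15 SE, FDR 3.65e-04), *Epha8* 3.05, 3.90 and 4.03 and 24.5, 15.8 and 16.3 CPM (2.26, FDR 4.83e-04), and *Sema6a* 109.8, 95.2 and 106 and 246, 219 and 201 CPM (1.01, FDR 4.81e-04). Each of these 3 was higher in every E18.5 library. *Plxnc1*, the receptor of SEMA7A, rose from 25.8, 24.8 and 31.6 to 77.9, 68.4 and 62.0 CPM (1.25, FDR 6.69e-04), *Ephb2* from 48.0, 63.9 and 51.2 to 115, 110.0 and 91.5 CPM (0.87, FDR 0.00198) and *Sema4f* from 9.57, 10.5 and 9.23 to 17.1, 15.0 and 16.3 CPM (0.64, FDR 0.00175). Their ages did not overlap either.

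Most ephrins tested were lower at E18.5 in all cells. Of the ephrin-A ligands 4 of 4 tested were lower at E18.5 and of the ephrin-B ligands 2 of 3, and *Efna4* and *Efna5* lost their calls under some alternatives. *Efna3* went from 45.4, 38.6 and 31.0 to 9.94, 8.88 and 12.7 CPM (-1.94 ± 0.18 SE, FDR 4.92e-04), *Efnb3* from 51.0, 58.9 and 51.6 to 26.4, 26.5 and 31.0 CPM (-1.03, FDR 7.03e-04), *Efna2* from 39.6, 47.4 and 39.0 to 26.3, 23.8 and 24.3 CPM (-0.85, FDR 8.19e-04) and *Efnb2* from 40.2, 41.7 and 37.3 to 26.3, 22.7 and 24.1 CPM (-0.79, FDR 5.84e-04). All E18.5 libraries of these 4 lay below all E14.5 libraries. Receptors differed in both directions: 1 EphA receptor rose and 2 fell of 5 tested, 3 plexins rose and 2 fell of 8, and of the neuropilins *Nrp2* fell (-0.96, FDR 0.00676) while *Nrp1* measured a log2 fold change of 0.03 ± 0.27 SE (FDR 0.932). Of the membrane-bound semaphorins 5 rose and 3 fell of 10. Under each alternative 4 of those 5 and none of those 3 held.

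Differentiated neurons at E14.5 were then compared with the pooled ePN1 to ePN4 cells at E18.5, and most receptors tested were higher at E18.5. The cells of each age were named from a different marker list, so a change in level and a different mix of subtypes cannot be told apart. Age and Cell Ranger version are in part confounded here as well, and no fit with version 5.0.1 alone was run on these neurons. In this fit 28 of 40 members were called (70.0%; 20 higher and 8 lower at E18.5), beside 56.7% of all genes (29.1% higher and 27.6% lower). EphA receptors rose in 4 of 6 tested, plexins in 6 of 8, neuropilins in 2 of 2 and class 3 semaphorins in 2 of 2, with none falling in these 4 groups, and their median log2 fold changes were 2.05, 0.73, 1.69 and 1.26, beside 0.40 for all members tested. The calls held under each alternative for all 4 EphA receptors, for 3 of the 6 plexins (*Plxna2*, *Plxna4* and *Plxnc1*), for *Nrp1* and for *Sema3a*. *Plxna1*, *Plxnb2*, *Plxnd1*, *Nrp2* and *Sema3f* lost theirs under at least 1. Of the EphB receptors only *Ephb1* was called, higher and under each alternative. *Epha3* went from 10.5, 17.003 and 16.04 to 90.9, 101 and 104 CPM (2.63 ± 0.16 SE, FDR 1.07e-06), *Epha7* from 15.4, 20.1 and 19.7 to 80.1, 69.9 and 85.5 CPM (1.97, FDR 2.07e-06) and *Ephb1* from 14.1, 14.9 and 19.1 to 80.5, 124 and 108 CPM (2.54, FDR 2.88e-06). In all 3 the lowest E18.5 library was above the highest E14.5 library. *Epha10* went from 1.48, 1.29 and 0.759 to 11.0, 9.80 and 10.9 CPM (3.18, FDR 6.62e-06), the largest log2 fold change among the members, from a level near 1 CPM. *Epha4* went from 17.9, 7.99 and 17.5 to 79.8, 63.0 and 72.2 CPM (2.14, FDR 1.60e-05).

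In the same neurons, *Nrp1* went from 38.1, 17.5 and 47.3 to 232, 253 and 242 CPM (2.65 ± 0.24 SE, FDR 1.10e-05), *Plxna4* from 2.11, 7.73 and 2.85 to 27.5, 21.9 and 23.6 CPM (2.55, FDR 8.15e-05) and *Plxna2* from 56.1, 41.7 and 55.5 to 97.4, 94.3 and 99.8 CPM (0.80, FDR 1.71e-04). *Sema3a*, a ligand of the neuropilin 1 and plexin A receptor complex, went from 6.96, 7.21 and 7.21 to 25.1, 36.8 and 32.1 CPM (2.01, FDR 8.29e-06). None of these 4 overlapped between the ages. Most ephrins fell instead: 4 of 4 ephrin-A ligands and 2 of 3 ephrin-B ligands were lower. Of these *Efna3*, *Efnb1* and *Efnb2* held under each alternative, while *Efna2*, *Efna4* and *Efna5* lost their calls in the Atoh1S193A/- libraries, where *Efna5* had a log2 fold change of 0.097 beside -0.35 in controls. *Efnb1* went from 24.7, 24.5 and 20.4 to 11.9, 13.8 and 12.6 CPM (-0.96, FDR 1.91e-04), while *Efnb3* was higher (0.81, FDR 6.80e-04). Of the 12 membrane-bound semaphorins tested 4 rose, none of them under each alternative, and 2 fell, the latter being *Sema6c* (-0.65, FDR 6.30e-04) and *Sema6a* (-0.40, FDR 0.00309).

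Called in both fits but with opposite sign were *Epha4*, *Ephb1*, *Efnb3*, *Plxna1*, *Plxna4*, *Nrp2*, *Sema3f* and *Sema6a*. *Epha4*, for example, fell by 1.496 on the log2 scale in all cells and rose by 2.14 in differentiated PN-like neurons, and *Sema6a* rose by 1.01 in all cells and had -0.40 in differentiated neurons. Of these 8, *Epha4*, *Efnb3* and *Sema6a* held under each alternative of both fits, and the other 5 lost a call in at least 1. The difference between both fits was not tested, since they share libraries. The same comparison of ages in the Atoh1S193A/- libraries, which are littermates of the controls and share their litter effects, kept the call for 23 of the 27 members in all cells and for 18 of the 28 in differentiated PN-like neurons. There *Ephb1* had 2.76, *Epha10* 3.42, *Plxna4* 2.92 and *Nrp1* 2.04 in differentiated neurons, beside 2.54, 3.18, 2.55 and 2.65 in controls. Calls that held under each alternative, including the left-out libraries, the mutant libraries and, in all cells, a fit with a single E14.5 control library (Cell Ranger 5.0.1 alone), numbered 17 of 27 in all cells (9 higher and 8 lower) and 16 of 28 in differentiated neurons (11 higher and 5 lower).

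**Figure D5:**
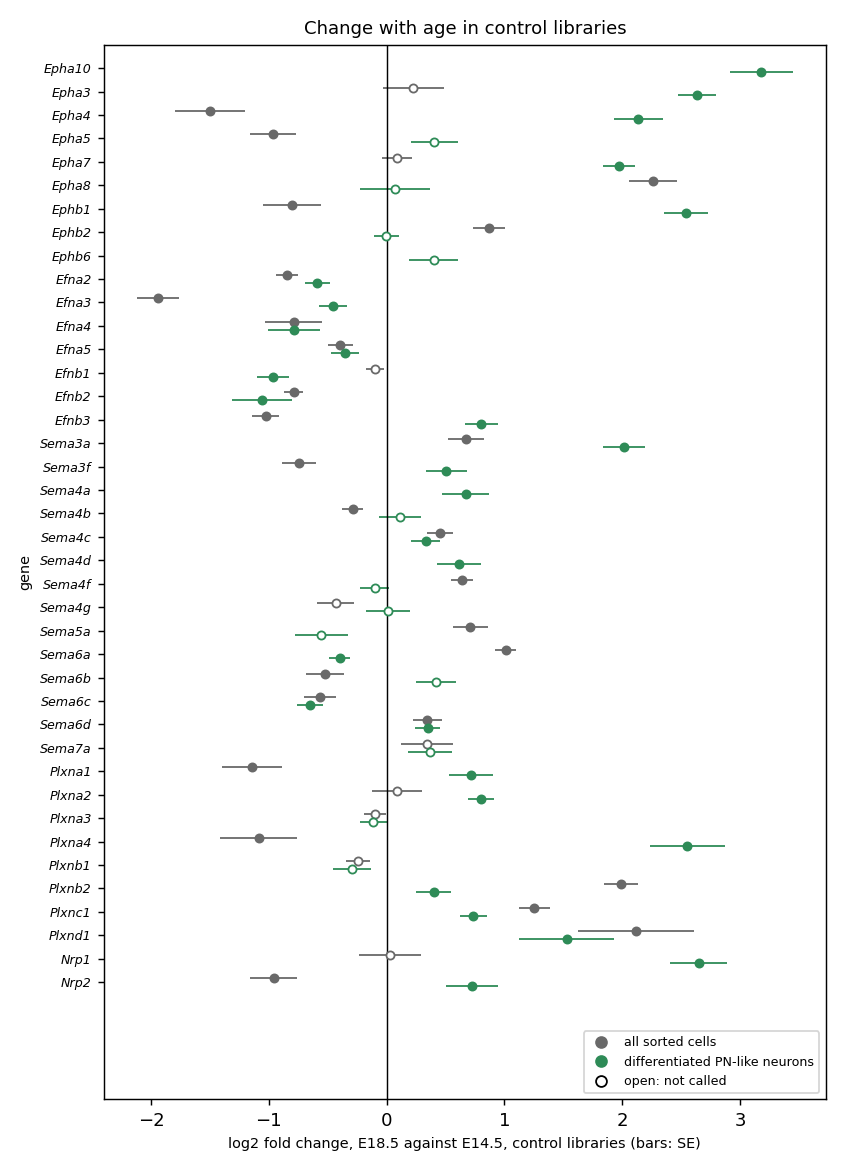
Log2 fold change of each tested member from E14.5 to E18.5 in control libraries, with bars of 1 SE, in all sorted cells (grey) and in differentiated PN-like neurons (green); filled points were called and open points were not. The ephrin-A points lie left of 0 in both fits, while *Epha10*, *Nrp1*, *Epha3*, *Plxna4* and *Ephb1* lie rightmost in differentiated neurons.

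Genes that act below these receptors were read from a list of 49 (collapsin response mediators, small GTPases and their regulators, kinases and adaptors, MICAL oxidoreductases, and co-receptors and sheddases). In all cells at E14.5 none of 41 tested was called for genotype with edgeR, while the litter block called 4 higher and 7 lower, beside 10.3% and 7.24% of all genes, among them *Dpysl4*, a collapsin response mediator of semaphorin signalling (-0.41, FDR 0.00561), and *Crmp1* (-0.38, FDR 0.0110). At E18.5 none of 39 was called under either fit. Within the PN-like states, the block called 2 of 40 tested in E14.5 Progenitors, beside 0.753% of all genes, and none in the other states of either age. Both were lower in mutants, *Dpysl4* (-0.75, FDR 0.00624) and *Cntn2*, a cell adhesion molecule (-1.34, FDR 0.00780). With age, 3 rose and 16 fell of 40 in all control cells, beside 26.5% and 25.1% of all genes. In differentiated neurons 16 rose and 12 fell of 44, beside 29.1% and 27.6%, and there *Dpysl4* (-2.48, FDR 8.38e-07) and the Rac activator *Vav3* (-2.04, FDR 5.84e-06) were lower and *Chl1*, a cell adhesion molecule that partners with neuropilin, was higher (2.62, FDR 1.07e-06).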

How the data were processed

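TdTomato-positive cells, sorted from hindbrains (E14.5, E18.5) or dissected PN (P5), were profiled by droplet 3' scRNA-seq in 14 libraries. The authors made UMI counts for each cell and gene with Cell Ranger against mm10 (with the WPRE sequence added) and deposited them unnormalized. Per the file headers, 12 libraries used version 5.0.1 and 2 E14.5 control libraries version 3.1.0. Counts were used as deposited.

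Cells with at least 1000 genes and under 5% mitochondrial UMIs were kept, because the 1% limit in the study's methods, which give criteria by age in their code, would leave 1034 of the 150188 barcodes in these files. The 7.5% of cells with the highest Scrublet score were removed per library. Cells were clustered by the Leiden method (leidenalg 0.10.2, resolution 1.0) on 30 principal components of 2000 variable genes, without the members and pathway genes. Equal numbers of neighbours from each litter were used only when the PN-like cells of E14.5 and E18.5 were clustered again. Cell states rebuilt in this way may differ from those of the study. UMIs were summed per library and class and tested with edgeR 4.0.16 (R 4.3.3) by the quasi-likelihood test with TMM, over genes found in at least 10% of cells of 1 genotype, and the adjusted p-values are Benjamini-Hochberg FDRs over all genes tested in a fit. A library needed 10 cells of a class. The SE given with an edgeR log2 fold change is approximate, its absolute value divided by the square root of the F statistic. DESeq2 1.42.0 was the alternative tool, beside fits without TMM, without the filter, without each library, with 1 Cell Ranger version, with a 10% mitochondrial limit, with doublets kept, at resolution 2.0, and with the Atoh1S193A/- libraries for age. The scripts were tested on simulated counts with 200 changed genes and no litter block. Of the 2-fold changes 92% were called in all E14.5 cells and 97% in all E18.5 cells. In E14.5 Progenitors 61% were called and in E18.5 ePN1 59%, so a gene not called in a state may still have changed. Unchanged genes made up 8.57%, 6.64%, 4.22% and 5.16% of the calls in the same order.

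Per the labels' protocol, each mutant embryo was collected with a littermate control. Equal replicate numbers were read as a shared litter, and the deviations of such pairs from their group means correlated at 0.527, 0.820 and 0.745 at E14.5 and 0.780, 0.818 and 0.925 at E18.5, so fits with the litter as a block are given where they change a call. The p-values compare embryos, 1 per library before birth, and the number of UMIs behind a level limits its precision. Members and gene lists were chosen with earlier results of these data known. Genes were named with values if called in a comparison (up to 10 by smallest FDR), if highest of their group in PN-like cells at an age, if among the 6 that differed most between states (ratio of highest to lowest state with 5 CPM added), or if listed by the study as subtype markers (*Ephb1*, *Nrp1* and *Epha5*). Clusters and genes outside these rules were chosen after their values were seen. Promoter sequences are from RefSeq (GRCm38.p6).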

Additional observations from a re-analysis of the deposited data

Results flagged for a closer look

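In all sorted cells, the genotype effect on 7 members differed between E14.5 and E18.5 in the interaction fit with the litter as a block, 18.4% of the 38 tested, beside 14.6% of all genes. The values are the log2 effect of Atoh1S193A/- at E18.5 minus that at E14.5, with edgeR FDRs. The difference was -0.92 for *Sema5b* (FDR 0.00845), 0.54 for *Sema4f* (FDR 0.0112), 0.29 for *Sema6c* (FDR 0.0173) and 0.71 for *Sema5a* (FDR 0.0236). It was 0.43 for *Sema4g* (FDR 0.0252), 0.33 for *Ephb1* (FDR 0.0368) and -0.29 for *Epha7* (FDR 0.0376). Without the block, edgeR called 0 of the 38 members tested, 4 having an unadjusted p under 0.05, and DESeq2 called 1. Controls 1 and 2 of E14.5 were counted with Cell Ranger 3.1.0, and their mutant littermates and all E18.5 libraries with 5.0.1. A difference between the ages therefore cannot be told apart from one of version in these litters. In litter 1 of E14.5 the control was female and the mutant male, so sex cannot be told apart from genotype there. The Progenitor markers summed to 1274 to 2403 CPM in E14.5 controls and 2036 to 4583 CPM in E14.5 mutants, beside 4145 to 4387 and 3628 to 4884 CPM at E18.5, and their part in these differences was not tested.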

How the results depend on the processing

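Calls of genotype depended on the pairing of litters and on the tool, and the cause was not tested. With the litter as a block, called members went from 0 to 10 in all E14.5 cells, from 0 to 6 over the E14.5 PN-like states, from 2 to 47 over the other clusters and from 0 to 7 for the interaction. It changed no call of a member in all cells or PN-like states at E18.5. Called genes went with the block from 1 to 1800, 6 to 239, 335 to 2284 and 0 to 1533 in the same order, from 0 to 25 in all E18.5 cells and from 10 to 71 over the E18.5 states. DESeq2 called 1 member each in all E14.5 cells, over the E14.5 states and for the interaction, and 250, 57 and 71 genes, beside 13 in all E18.5 cells. Without the filter, which tests more genes, 6 members and 312 genes were called over the E14.5 states and 157 genes over the E18.5 states. Libraries of Cell Ranger 5.0.1 alone, which leave 1 E14.5 control assumed to vary like the other group, gave 0 genes in all E14.5 cells and over its states, so version and the loss of 2 controls cannot be told apart. In all E14.5 cells, keeping doublets gave 0 genes, the 10% mitochondrial limit 11 and no TMM 2, and resolution 2.0 gave 2 genes over the E18.5 states.

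Leaving out 1 library gave 0 to 4 genes in all E14.5 cells, 0 to 1 members and 3 to 63 genes over the E14.5 states, 6 to 22 genes over the E18.5 states and 0 to 1 genes for the interaction. The upper values at E14.5 and for the interaction came without mutant 2 of E14.5, and the upper value at E18.5 without mutant 1. In all E14.5 cells 0 genes were called without control 1, control 2, mutant 1 or mutant 3. Over the E14.5 states 3 genes were called without mutant 1 and 14 without control 3, and over the E18.5 states 6 without mutant 2 or control 2. Leaving out both libraries of litter 2, an alternative chosen after seeing the data, gave 0 genes in all E14.5 cells and 1 member and 36 genes over the states, and with the block 9 members and 1534 genes in all cells and 12 members and 580 genes over the states.

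Of the 27 members called for age in all cells, 23 remained called in the Atoh1S193A/- libraries (with 3455 genes called, beside 5307), 19 with Cell Ranger 5.0.1 alone (1 E14.5 control), 27 with DESeq2 and 20 to 25 without 1 library. Of the 28 called in differentiated neurons, 18 remained in the Atoh1S193A/- libraries, 23 with DESeq2 and 21 to 27 without 1 library. In the Atoh1S193A/- libraries *Sema6b* in all cells had a log2 fold change of 0.0068, beside -0.52 in controls, and *Efna5* in differentiated neurons 0.097, beside -0.35. TMM scaling moved no named level by more than 1 SD. No test was run on P5 or on ePN4 by itself.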
